A study of Livoneca redmanii with 3 samples.

Results

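Low temperature was compared with control in the parasitic isopod Livoneca redmanii, with the reads of all contigs of an assembled gene summed. Every contig of the deposited count table was used once, contigs that share an ID up to the isoform suffix were treated as 1 assembled gene, and a gene was kept when it had more than 20 counts over both libraries. This left 6378 of 26084 assembled genes. Just inside that limit, 198 genes had 21 counts, and just outside it 218 genes had 20. A narrower set of 1497 genes had more than 3 counts in each of the libraries and is described separately.

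The low-temperature group consisted of animals cooled to 10 °C, and the labels used here give no salinity for that group. The control animals were kept at 26 °C and 35 PSU. In both groups, RNA was taken from whole parasites that had been collected from Tilapia zilli, a tilapia fish, in Lake Qarun in Egypt, and that were then held in aquaculture. Each condition was 1 Ion Torrent library. The number of animals behind each library and their sex and stage are not stated in the labels. Without replicates no difference has a check against the spread between animals, and no p-value is given. Temperature and anything else that differed between these libraries cannot be told apart. In whole animals, fewer cells of a type and less RNA per cell cannot be told apart either.

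Cymothoid isopods are crustaceans that attach to fish and feed on them. A crustacean carries oxygen in its hemolymph with hemocyanin, buffers the ATP of its muscles with arginine kinase, and fills its eggs with yolk made from vitellogenin. Crustacean genomes can hold many mobile genetic elements, which code for a reverse transcriptase, an integrase or a transposase and are copied or moved within the genome.

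The low-temperature library summed to 2782324 counts and the control library to 2142836. The kept genes took 97.2% of the counts in low temperature and 97.5% in control. Counts were concentrated in few genes: 8 genes held 50% of the counts in low temperature, and 13 did in control, and the top gene alone held 24.8% in low temperature and 18.6% in control. Of the kept genes, 635 were at 0 in low temperature and 2974 were at 0 in control. In ratios a count of 0 is set to a floor of 3 counts, which is 0.000108% of the low-temperature library and 0.00014% of the control library. All limits and intervals given here are for counting error alone, because PCR copies were counted without molecular identifiers and are not separate molecules.

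**Figure D1:**
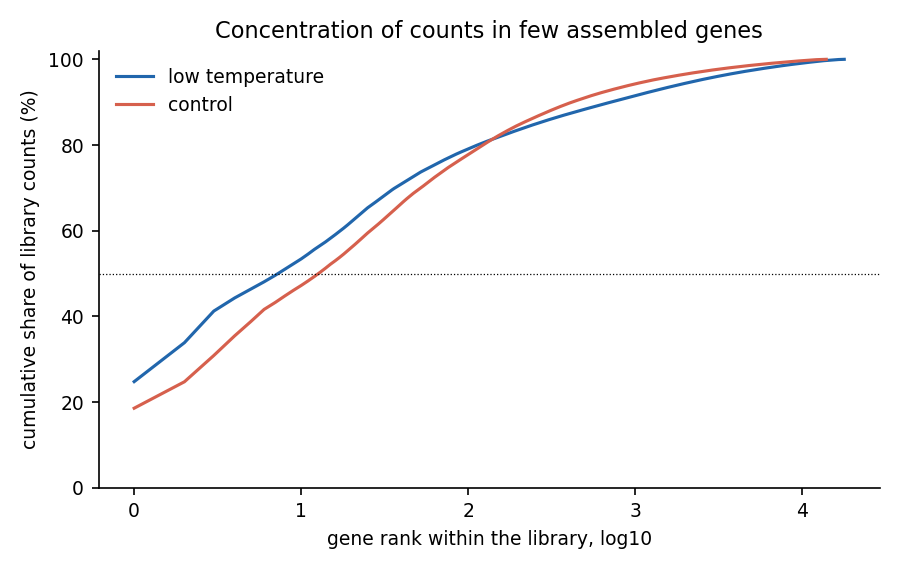
Cumulative share of library counts (vertical axis, %) against the rank of assembled genes within each library (horizontal axis, log10), for low temperature and control, 1 library each. The dotted line marks 50% of counts. The low-temperature curve starts at 24.8% and passes the line at 8 genes, the control curve starts at 18.6% and passes it at 13.

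The libraries were filled by different kinds of gene. Genes whose annotation names a mobile element took 4.97% of the low-temperature library, with an exact binomial 95% interval of 4.94% to 4.99%, against 56.1% of the control library (56.1% to 56.2%). Genes with any other annotation took 16.5% in low temperature and 7.93% in control, and genes with no annotation took 75.7% in low temperature and 33.4% in control. Among annotated counts alone, mobile elements were 23.1% in low temperature and 87.6% in control.

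The class of other annotations was itself mixed. After the values were seen, it was split into 87 genes that carry a text recurring over many contigs (such as BH2 domain binding, TOR signalling or zinc finger), 100 genes with a hit but no description, and a remainder of 2256 genes. The remainder held 445260 counts at low temperature against 13825 in control, which are 16.0% and 0.645% of these libraries. The recurrent texts went the other way, with 9475 counts (0.341%) at low temperature against 118090 (5.51%) in control. Genes with a hit but no description had 4413 counts at low temperature against 37977 in control. The control counts of the remainder were narrow as well, since 10 genes held 11443 of them, or 82.8%.

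**Figure D2:**
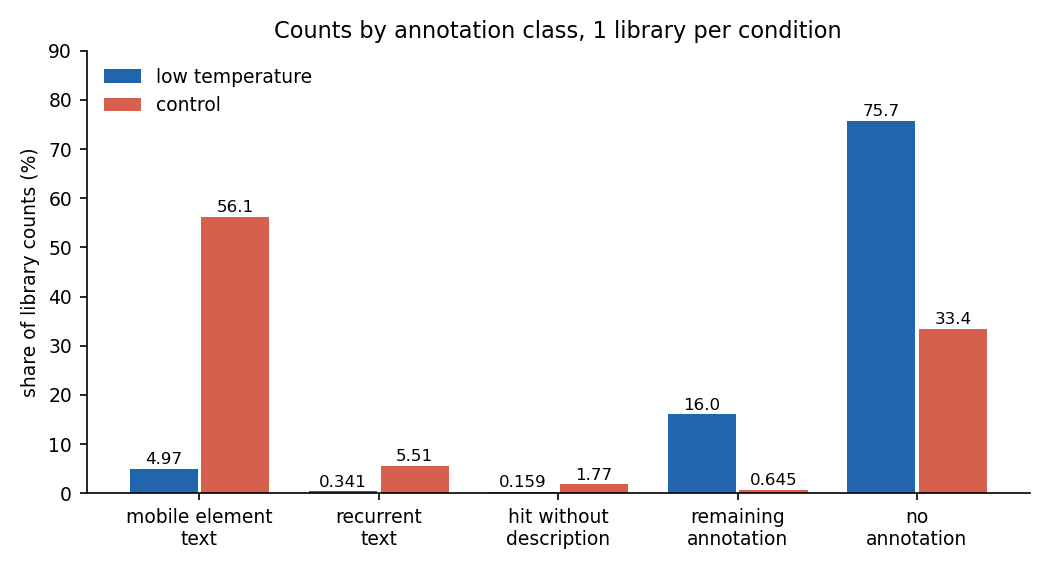
Share of library counts (vertical axis, %) in each annotation class, with low temperature on the left of each pair and control on the right, 1 library each. Genes with mobile element text hold 4.97% of low temperature and 56.1% of control, and the remaining annotation holds 16.0% of low temperature and 0.645% of control.

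A ratio between the libraries is a ratio of shares of library counts, low temperature over control, with counts under 3 set to 3, and a gene is called higher or lower when the ratio is at least 2-fold. A fold printed for a single gene uses its counts as they stand, unless 1 library has 0 counts. In that case the 0 is set to 3, and the fold is a lower bound before counting error is allowed for. Of the 6378 genes, 3618 (56.7%) were higher in low temperature and 2602 (40.8%) were lower. The filter fixed much of this: 2974 genes had counts in low temperature and none in control, and 635 had counts in control and none in low temperature, so they could only fall on 1 side. The genes found in low temperature alone held 416234 counts, 15.0% of that library, and the genes found in control alone held 33112 counts, 1.55% of that library. Scaling moved the split further. With TMM, which sets the bulk of shared genes equal, all log2 ratios shift by 2.98 and the calls become 3938 higher and 1228 lower. With median-of-ratios scaling the shift is 3.51 and the calls become 4055 higher and 820 lower. With upper quartile scaling the shift is -0.44 and the calls stay close, at 3593 higher and 2652 lower.

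**Figure D3:**
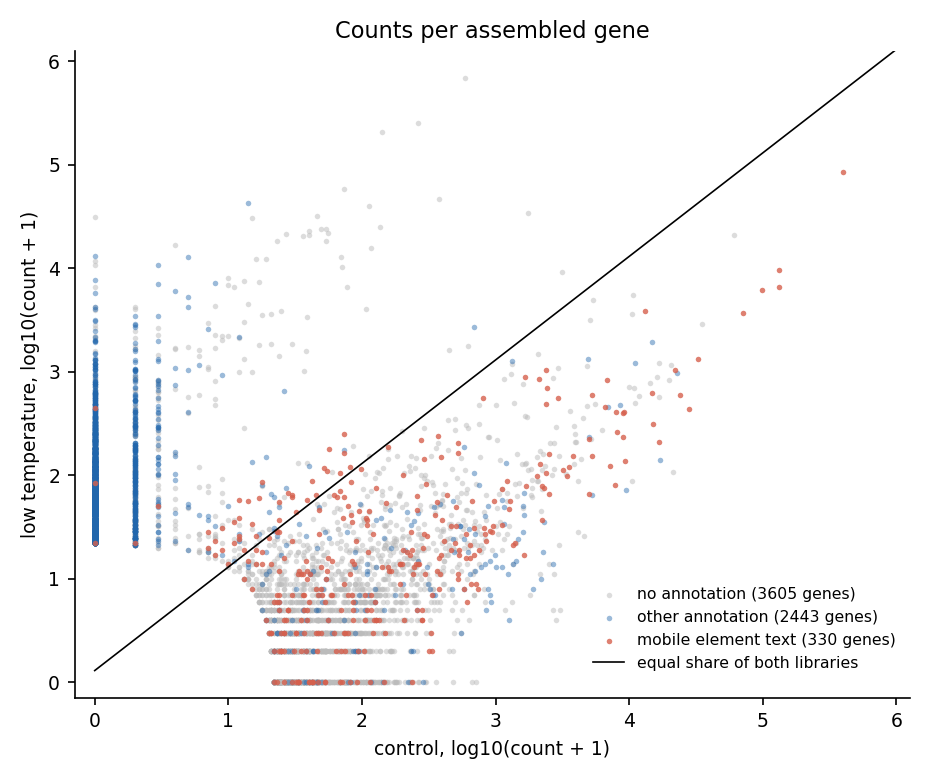
Counts of each of the 6378 assembled genes in low temperature (vertical axis, log10 of count + 1) against control (horizontal axis, log10 of count + 1), coloured by annotation class. The line marks an equal share of both libraries. Genes with other annotation line up at 0 or 1 count in control, where 1951 of 2443 had 0, and genes with mobile element text lie mostly below the line, where 268 of 330 were at least 2-fold lower.

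In each group below, the lists of functions are read from gene names, descriptions and KEGG orthologs, and each gene counts in 1 list only. The 27 lists hold 1200 genes, of which 1162 were higher, 32 lower and 982 at 0 in control, against 56.7% higher and 40.8% lower over all genes. A gene that is at 0 in control passed the filter only through its low-temperature counts, so the number higher is no support for any list. The summed counts show what the lists hold, with 354104 at low temperature against 63364 in control. Levels of different genes are not compared per length here, so a larger count does not mean more transcript molecules.

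Hemolymph proteins were the largest of the lists in low temperature. The 10 genes for hemocyanin, larval serum and iron storage proteins had 53664 counts at low temperature against 17 in control. The gene described as larval serum protein with a hemocyanin copper domain (TRINITY_DN12_c0_g1, 15 contigs) had 42385 counts at low temperature against 13 in control. That is a 2511-fold larger share in low temperature (exact conditional binomial 95% interval 1468 to 4716), and the largest ratio among annotated genes with counts over 3 in both libraries. Larval serum proteins are relatives of hemocyanin that store amino acids. A further larval serum gene (TRINITY_DN34_c0_g1) had 7720 counts at low temperature against 0 in control. That is 1982-fold higher against the floor of 3 counts per library, with an exact lower 95% limit of 1611-fold. Ferritin heavy chain FTH1 (TRINITY_DN121_c0_g1), which stores iron, had 1909 counts at low temperature against 1 in control.

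Yolk genes followed the same order. Vitellogenin, Vg (TRINITY_DN9_c0_g1), the yolk precursor, had 13103 counts at low temperature against 0 in control. That is 3364-fold higher against the floor, with an exact lower 95% limit of 2735-fold. The 5 genes of the egg and ovary list had 15262 counts at low temperature against 5 in control. Its other named members were ACE (TRINITY_DN492_c0_g1), a peptidyl dipeptidase, with 1272 counts at low temperature against 2 in control, and a lipid transporter gene (TRINITY_DN20071_c0_g1) with 723 at low temperature against 0 in control. The 5 genes of the sperm and testis list were low, with 227 counts at low temperature against 0 in control. They were led by ODF3 (TRINITY_DN1468_c0_g1), an outer dense fibre gene of the sperm tail in mammals, with 102 at low temperature against 0 in control.

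Muscle and actin genes made up the second largest list, with 72 genes, 53036 counts at low temperature against 509 in control. The actin gene ACTB (TRINITY_DN31_c0_g1, 14 contigs) also carries the symbols ACTA2 and NUP133. It is described as beta or cytoplasmic actin and as nucleoporin 133, so it is no clear muscle marker. It had 12689 counts at low temperature against 4 in control, 2443-fold higher (954 to 8968). The myosin heavy chain unc-54 (TRINITY_DN17_c0_g1), the motor of the thick filament, had 10745 counts at low temperature against 2 in control, 4138-fold higher with an interval of 1145 to 34171 on the counts as they stand. Its log2 ratio with the 2 control counts set to 3 was 11.43. The myosin light chain Mlc1 (TRINITY_DN39_c0_g1) had 4055 counts at low temperature against 0 in control. Of the 509 control counts of the list, 483 belonged to another actin gene, also named ACTB (TRINITY_DN765_c0_g1) and picked out after its values were seen, which had 56 counts in low temperature and was 11.2-fold lower by total counts (8.48 to 15.0), although its log2 ratio of -3.49 became 0.02 with median of ratios. By library share the actin genes thus did not move together: the abundant one was near 0 in control, and a rarer one had most of its counts there. Arginine kinase, listed under the creatine kinase name CKM (TRINITY_DN20_c0_g1), regenerates ATP from a phosphagen and had 5255 counts at low temperature against 4 in control, 1012-fold higher (394.9 to 3715).

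Each step of central energy metabolism that was examined had counts in the low-temperature library, and few had more than a trace in control. All 10 steps of glycolysis had more than 3 counts in low temperature, against 3 of 10 in control, with summed counts of 10367 at low temperature against 44 in control. GAPDH (TRINITY_DN19_c0_g1) led with 3424 at low temperature against 2 in control. The glycolytic steps seen in control were aldolase with 2187 counts at low temperature against 25 in control, enolase with 928 at low temperature against 8 in control, and phosphoglycerate mutase with 404 at low temperature against 4 in control. All 8 steps of the citrate cycle had more than 3 counts in low temperature and none did in control, with 3471 counts at low temperature against 5 in control. Over all 2056 orthologs of annotated genes without mobile element text, 2052 passed 3 counts in low temperature and 90 in control. Full coverage in low temperature is thus no trait of these pathways. The 52 genes of oxidative phosphorylation had 7817 counts at low temperature against 5 in control. ATP5B (TRINITY_DN157_c0_g1), the catalytic subunit of ATP synthase, had 1474 at low temperature against 0 in control.

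A gene with the name of a mitochondrially encoded subunit had a smaller ratio than these. The gene annotated cox3 (TRINITY_DN1_c1_g1), a subunit of cytochrome c oxidase that animals encode in mitochondrial DNA, had 2712 counts at low temperature against 686 in control. It was 3.04-fold higher in low temperature (2.80 to 3.32), against 1204-fold for the summed counts of the 52 genes of the oxidative phosphorylation list. This gene was chosen after its values were seen. Its description, heme copper-type cytochrome quinol oxidase subunit 3, names no organism, and whether it comes from the mitochondria of the isopod was not tested. It held more control counts than the 10 hemolymph, 52 oxidative phosphorylation and 31 glycolysis and citrate cycle genes together (17, 5 and 48).

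Genes of protein synthesis were broad in low temperature. The list of ribosomal proteins held 99 genes with 21830 counts at low temperature against 221 in control. It is not purely cytosolic: 66 genes carry an RPL or RPS symbol and had 19744 counts at low temperature against 16 in control, 19 carry the symbol of a mitochondrial ribosomal protein and had 671 at low temperature against 3 in control, and 14 have another symbol or none and had 1415 at low temperature against 202 in control. Of these 202, 201 came from KIF22 (TRINITY_DN330_c9_g1), picked out after its values were seen, which is described as a microtubule motor and entered the list only through a KEGG ortholog of a contig. By ortholog, 80 ribosomal protein orthologs had more than 3 counts in low temperature and 1 did in control. The counts of KIF22 enter these ortholog sums too, so that 1 need not be a ribosomal protein gene. Over all 2056 orthologs of annotated genes without mobile element text, 2052 passed 3 counts in low temperature and 90 in control. RPS2 (TRINITY_DN53_c0_g1), of the small subunit, had 1283 counts at low temperature against 0 in control, and RPL4 (TRINITY_DN122_c0_g1), of the large subunit, had 1116 at low temperature against 0 in control. The 47 translation factors had 18787 counts at low temperature against 7 in control. Elongation factor EF1a (TRINITY_DN56_c0_g1), which brings tRNAs to the ribosome, had 7092 at low temperature against 2 in control, and EEF2 (TRINITY_DN96_c0_g1), which moves the ribosome along, had 4262 at low temperature against 0 in control.

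Protein folding and turnover showed the same contrast. The 62 chaperone genes had 19220 counts at low temperature against 12 in control, and none of them had more than 3 counts in control. Among all 2443 annotated genes without mobile element text, 207 did. HSP90 (TRINITY_DN80_c0_g1, HSP90AB1), a chaperone of signalling proteins, had 3110 counts at low temperature against 0 in control. The constitutive Hsc70-4 (TRINITY_DN71_c0_g1) had 2805 at low temperature against 1 in control, and HSPA5 (TRINITY_DN186_c0_g1), the Hsp70 of the endoplasmic reticulum, had 1193 at low temperature against 0 in control. In the ubiquitin and proteasome list, 86 genes had 10043 counts at low temperature against 13 in control. All 16 core proteasome orthologs passed 3 counts in low temperature and 0 did in control. Over all 2056 orthologs of annotated genes without mobile element text, 2052 passed in low temperature and 90 in control, so this is no trait of the proteasome.

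RNA-binding genes included the only gene described with a cold shock domain. YBX2 (TRINITY_DN203_c0_g1), a Y-box protein that binds mRNA, had 1236 counts at low temperature against 1 in control. The list of 128 RNA-binding and cold shock genes had 16531 counts at low temperature against 280 in control. The poly(A)-binding protein PABPC4 (TRINITY_DN337_c0_g1) had 1507 at low temperature against 0 in control, and TARDBP (TRINITY_DN274_c0_g1), a splicing regulator, had 831 at low temperature against 1 in control. A helicase gene of this list, picked out after its values were seen, lay on the other side: DDX23 (TRINITY_DN2920_c0_g1), a spliceosomal helicase in humans, had 6 counts at low temperature against 177 in control. With a ratio 38.3-fold lower in low temperature (17.3 to 105.8), it was among the few symbol-bearing genes that control favoured.

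Digestive and secreted enzymes were abundant in low temperature. The 98 peptidase genes had 29843 counts at low temperature against 173 in control. The trypsin-like gene TMPRSS5 (TRINITY_DN146_c0_g1) had 5738 counts at low temperature against 0 in control. That is 1473-fold higher against the floor, with an exact lower 95% limit of 1198-fold. Serine peptidase genes were also among the highest ratios of genes seen in both libraries: TMPRSS6 (TRINITY_DN48_c0_g1) had 2569 counts at low temperature against 6 in control, and TMPRSS9 (TRINITY_DN90_c0_g1) had 2171 at low temperature against 11 in control. The lysosomal peptidase cathepsin D, CTSD (TRINITY_DN129_c0_g2), had 1049 at low temperature against 4 in control. Of the 98 genes, 96 were higher and 2 lower, beside 56.7% higher and 40.8% lower over all genes. As 76 of them were at 0 in control and could only be called higher, this number is no support.

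Lipid and redox genes also had nearly all of their counts in the low-temperature library. The 64 lipid genes had 18351 counts at low temperature against 14 in control, led by FABP6 (TRINITY_DN30239_c0_g1), a fatty-acid carrier, with 5998 at low temperature against 3 in control. FASN (TRINITY_DN454_c0_g1), the fatty acid synthase, had 1579 at low temperature against 1 in control. Among 60 antioxidant and detoxification genes, with 13492 counts at low temperature against 41 in control, the glutathione peroxidase GPX3 (TRINITY_DN28_c0_g1) had 4193 at low temperature against 4 in control. It was 807.3-fold higher (315.1 to 2964). The mitochondrial ADP/ATP carrier slc25a4 (TRINITY_DN68_c0_g1) had 2024 counts at low temperature against 0 in control, and the calcium pump ATP2A2 (TRINITY_DN147_c0_g1), which refills muscle calcium stores, had 1946 at low temperature against 0 in control.

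The transport list as a whole pointed towards control because of 1 text. It had 10549 counts at low temperature against 20661 in control, and 5 genes described as solute carrier family 22 held 210 of the low-temperature counts and 20485 of the control counts. Without them the list of 58 genes had 10339 counts at low temperature against 176 in control. The signalling list was shaped in the same way. It had 7185 counts at low temperature against 38558 in control, and 8 genes described as protein phosphatase regulator or endonuclease/exonuclease/phosphatase family held 1773 of the low-temperature counts and 38299 of the control counts. The list without them, 49 genes, had 5412 counts at low temperature against 259 in control.

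The immune, cuticle and cytoskeletal lists had nearly all of their counts in low temperature too. A C-type lectin gene (TRINITY_DN43_c0_g1), of a family of carbohydrate-binding proteins used in arthropod immunity, had 7253 counts at low temperature against 7 in control, 798.0-fold higher (387.1 to 1986). It made up most of the 7929 low-temperature counts of the 8 immune genes, which had 8 in control. The 19 cuticle and chitin genes had 3665 counts at low temperature against 9 in control. They included serp (TRINITY_DN382_c0_g1), a chitin deacetylase of the fly cuticle and tracheae, with 796 at low temperature against 0 in control. The 39 tubulin and cytoskeleton genes had 14101 counts at low temperature against 4 in control. Beta-tubulin betaTub56D (TRINITY_DN64_c0_g1), a building block of microtubules, had 2673 at low temperature against 1 in control.

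Smaller lists of the cell's housekeeping had few counts in either library. The 61 vesicle and small GTPase genes had 4248 counts at low temperature against 55 in control, led by clathrin heavy chain CLTC (TRINITY_DN6371_c0_g1), the coat of endocytic vesicles, with 291 at low temperature against 0 in control. The 50 transcription genes had 3069 at low temperature against 66 in control, the 33 cell cycle and DNA genes 2072 at low temperature against 96 in control, and the 16 extracellular matrix genes 2138 at low temperature against 5 in control. In the last of these, the type IV collagen let-2 (TRINITY_DN481_c0_g1), a basement membrane protein, had 397 at low temperature against 2 in control. A further mitochondrial ribosomal gene, MRPS35 (TRINITY_DN29772_c0_g1), had 46 at low temperature against 0 in control. Beyond the lists, the methionine adenosyltransferase MAT1A (TRINITY_DN130_c0_g1) had 1360 at low temperature against 0 in control, and the transketolase TKT (TRINITY_DN213_c0_g1), of the pentose phosphate pathway, had 1066 at low temperature against 0 in control. Both were named after their values were seen.

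The histone and chromatin list had more counts in control, with 1423 at low temperature against 2366 in control. With the recurrent texts left out, a choice made after the values were seen, no other list did. With them, the transport and signalling lists did too. A few core histone genes held nearly all of the control counts. The histone genes HIST1H3D (TRINITY_DN142_c0_g1), HTB1 (TRINITY_DN263_c0_g1) and H3F3C (TRINITY_DN227_c0_g1), which package DNA into nucleosomes, had together 114 counts at low temperature against 2363 in control. HIST1H3D had 57 at low temperature against 1121 in control, 25.5-fold lower (19.6 to 33.9). HTB1, a histone H2B, had 26 at low temperature against 699 in control, 34.9-fold lower (23.6 to 53.8). H3F3C had 31 at low temperature against 543 in control, 22.7-fold lower (15.8 to 33.8), and all of these stayed lower under every scaling tried. The other 19 genes of the list were each higher in low temperature, beside 56.7% of all genes. Of them, 16 had 0 counts in control and 3 had 1 to 3, so the filter fixed their direction. They included a different gene also named H3F3C (TRINITY_DN703_c0_g1), with 173 at low temperature against 1 in control. Another was the variant histone H2AFZ (TRINITY_DN64050_c0_g1), with 46 at low temperature against 0 in control. These 2 were named after their values were seen.

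**Figure D4:**
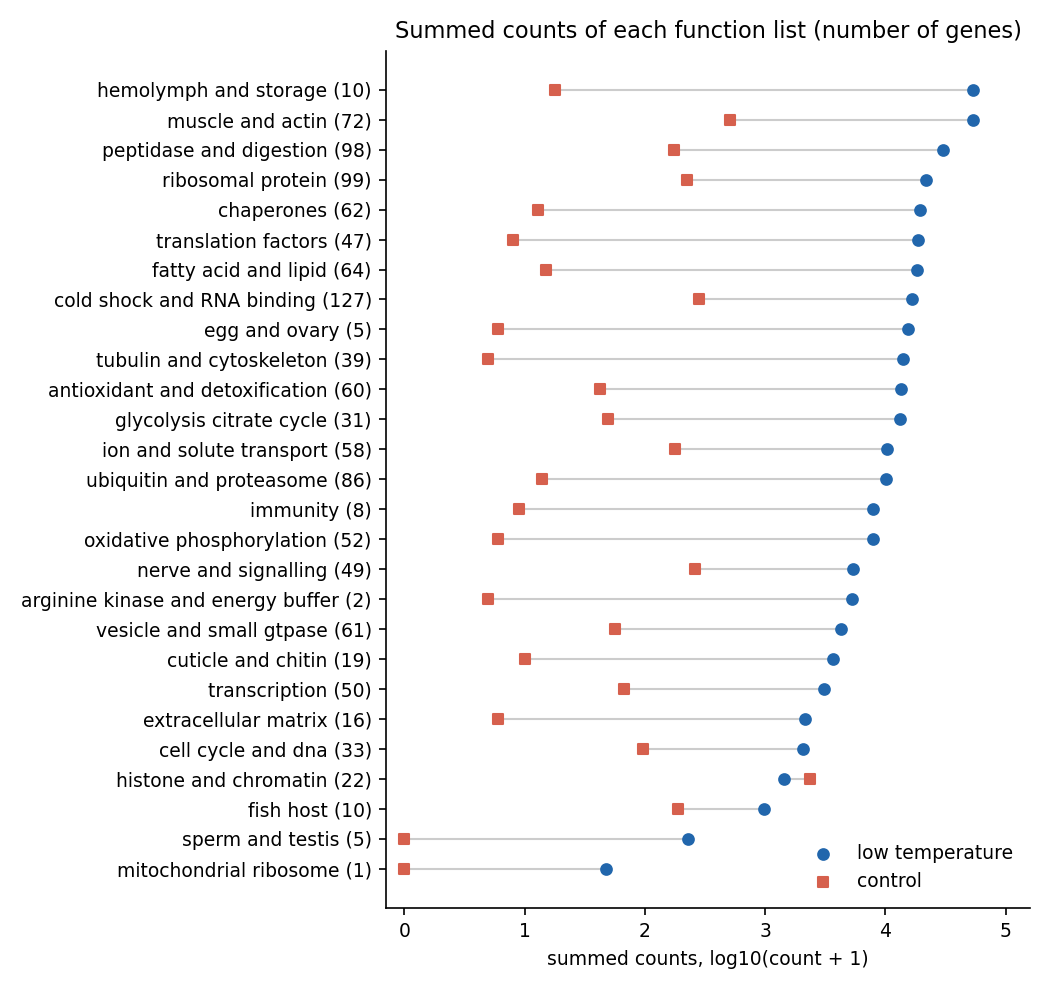
Summed counts (horizontal axis, log10 of count + 1) of each of the 27 function lists in low temperature (circles) and control (squares), 1 library each, with the number of genes in brackets and without the recurrent texts and hits that lack a description. Control exceeds low temperature only for histone and chromatin, with 1423 counts at low temperature against 2366 in control.

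Markers of the fish host were checked, since the animals lived on fish. No kept gene was described as hemoglobin, parvalbumin or major histocompatibility. The 10 genes that entered the list did so through immunoglobulin or fibrinogen text and had 976 counts at low temperature against 187 in control. Most of the low-temperature counts were from unc-22 (TRINITY_DN312_c0_g1), twitchin, a muscle protein of invertebrates with immunoglobulin domains, which had 585 at low temperature against 1 in control. The gene with most control counts was described as immunoglobulin like (TRINITY_DN69_c1_g1) and had 0 counts at low temperature against 143 in control.

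Across the annotated remainder, a control count was found more often where the low-temperature count was high. Whatever their ratio, 10.5% of the genes with 21 to 99 low-temperature counts had any control count, as did 14.4% at 100 to 299, 31.2% at 300 to 999, 23 of 46 genes at 1000 to 2999, and 58.8% at 3000 or more. Among the 50 genes of the remainder with most low-temperature counts, 24 had 0 counts in control, 16 had 1 to 3 and 10 had more than 3. The genes at 3000 or more had 143631 counts at low temperature against 42 in control. Summed control counts did not follow the same order: from the lowest of these levels to the highest they were 9556, 91, 97, 2048 and 42.

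By KEGG ortholog the coverage of cell functions differed in breadth. Annotated genes without mobile element text carried 2056 orthologs. More than 3 counts were found for 2052 of them in low temperature and for 90 in control, with 86 in both and 4 in control alone. The near-full coverage in low temperature is partly fixed by the filter, which most of these genes passed through low temperature alone. Over all 6378 genes, 4969 had more than 3 counts in low temperature and 2906 in control. Without a filter on counts, 3009 orthologs were listed, with more than 3 counts for 3000 in low temperature and for 103 in control. By COG letter, genes for protein turnover and chaperones in the remainder had 85796 counts at low temperature against 112 in control, and those for the cytoskeleton had 67179 at low temperature against 716 in control. Chromatin was the only letter examined with more control counts than low-temperature counts there, with 3653 at low temperature against 3685 in control.

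Mobile elements filled the control library. The 330 genes with such text had 138256 counts at low temperature against 1202613 in control, an 11.3-fold smaller share in low temperature, and 268 of them were lower and 17 higher, beside 40.8% lower and 56.7% higher over all genes. Shares are fixed by the library totals, and the direction of single mobile element genes was not: under TMM 154 were lower and 86 higher, and under median of ratios 116 were lower and 105 higher. Under upper quartile scaling 276 were lower and 11 higher. A scaling shifts all classes alike, so the distance between the classes stays the same under each. The log2 ratio of summed counts was -3.50 for mobile elements and 4.63 for the remainder by total counts, and it was -0.52 for mobile elements and 7.61 for the remainder with TMM. The remainder was set apart after the values were seen, by taking out texts that lay mainly in control, and that choice widens the distance. All 2443 annotated genes without mobile element text had 459148 counts at low temperature against 169892 in control, a 2.08-fold larger share in low temperature.

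Reverse transcriptase, which copies the RNA of a retroelement into DNA, was the commonest text. Its 164 genes had 122575 counts at low temperature against 907558 in control, 9.61-fold lower by total counts, with log2 ratios of summed counts of -0.29 under TMM and 0.24 under median of ratios. The 121 genes with ribonuclease H text, an enzyme that removes RNA from RNA-DNA hybrids, had 31138 at low temperature against 528706 in control, 22.0-fold lower. A gene can carry both texts. The single gene TRINITY_DN4_c0_g1, described as zinc finger and endonuclease-reverse transcriptase, held 85223 counts at low temperature against 398227 in control, 18.6% of the control library. It was 6.07-fold lower by total counts (6.02 to 6.11), and its log2 ratio of -2.60 became 0.37 with TMM and 0.91 with median of ratios.

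The other large mobile element genes were lower by more. TRINITY_DN1960_c0_g1 had 9596 counts at low temperature against 131570 in control, 17.8-fold lower by total counts, and TRINITY_DN0_c1_g1 had 6633 at low temperature against 132133 in control, 25.9-fold lower. Both are described as ribonuclease H protein. TRINITY_DN24_c0_g1, a reverse transcriptase with 34 contigs, had 6177 at low temperature against 98240 in control, 20.7-fold lower, and TRINITY_DN18_c0_g1, a reverse transcriptase with 44 contigs, had 3666 at low temperature against 71545 in control, 25.3-fold lower. Further down, TRINITY_DN7_c0_g1 had 438 at low temperature against 27966 in control, 82.9-fold lower (75.4 to 91.3), and TRINITY_DN15_c0_g1 had 596 at low temperature against 23882 in control, 52.0-fold lower. The ratios of these genes thus ran from 17.8-fold to 82.9-fold lower, and each interval excluded the 6.07-fold of TRINITY_DN4_c0_g1. Under median of ratios TRINITY_DN1960_c0_g1 and TRINITY_DN24_c0_g1 were within 2-fold, with log2 ratios of -0.65 and -0.86. At the weak end, TRINITY_DN50_c0_g1 had 3887 at low temperature against 13161 in control, 4.40-fold lower by total counts but with log2 ratios of 0.84 under TMM and 1.37 under median of ratios.

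Other element texts had larger differences than reverse transcriptase in summed counts, and a gene can carry more than 1 of these texts. The reverse transcriptase sum of 907558 control counts includes the 398227 of TRINITY_DN4_c0_g1. Per gene, the median log2 ratio by total counts was -3.75 for reverse transcriptase and -3.61 for the transposase set, so the latter was not lower. It was -4.94 for the integrase set, -5.53 for Tf2 and -4.87 for jockey. The 43 genes with K02A2.6-like, gypsy or integrase text, the enzyme that inserts a copy into the genome, had 2074 counts at low temperature against 64499 in control, 40.4-fold lower. All 43 were lower by total counts, beside 40.8% of all genes and 268 of the 330 mobile element genes. Under TMM 32 of them were lower and 1 higher, and under median of ratios 25 were lower and 3 higher. The 15 genes with Tf2 text, named after a fission yeast retrotransposon, had 452 at low temperature against 26648 in control, 76.6-fold lower. The 4 genes with jockey text, a fly retroelement without long terminal repeats, had 713 at low temperature against 28980 in control, 52.8-fold lower. The 44 genes with transposase or transposon text had 1172 at low temperature against 44788 in control, 49.6-fold lower. Their log2 ratios of summed counts stayed below 0 under every scaling tried, at -2.36 for the integrase set, -2.75 for jockey and -2.66 for the transposase set under TMM.

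The 17 mobile element genes that were higher in low temperature by total counts were small. The largest, CNBP (TRINITY_DN3981_c0_g1), had 443 counts at low temperature against 0 in control and is in the class through its zinc knuckle text, which cellular nucleic-acid binding proteins share. ZCCHC9 (TRINITY_DN3253_c0_g1), with the same text, had 83 at low temperature against 0 in control. The largest with reverse transcriptase text, TRINITY_DN769_c0_g1, had 252 at low temperature against 72 in control, 2.70-fold higher (2.07 to 3.55). These genes were named after their values were seen.

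The recurrent texts were close to the mobile elements in direction. They were set apart after the values were seen, as texts that lay mainly in control, so that choice fixed their direction. All 11 genes described as BH2 domain binding were lower under every scaling tried, with 144 counts at low temperature against 19480 in control, 175.6-fold lower. The largest, TRINITY_DN69_c0_g1, had 71 at low temperature against 9477 in control, 173.3-fold lower (137.3 to 222.1). The 5 solute carrier family 22 genes, a name for transporters of organic ions, were 126.7-fold lower in sum, and TRINITY_DN27_c0_g1 alone had 139 at low temperature against 17083 in control, 159.6-fold lower (135.1 to 189.9). Both of these largest genes carry no gene symbol. TRINITY_DN6_c0_g1, with a description of protein phosphatase regulator and Ge1, had 972 at low temperature against 22942 in control, 30.6-fold lower (28.7 to 32.7), and a gene of the same cluster ID, TRINITY_DN6_c0_g7, is described as ribonuclease H protein and had 1036 at low temperature against 21958 in control, 27.5-fold lower.

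Zinc finger genes went in both directions, as did all genes. Of the 25 zinc finger genes without mobile element text, 16 were higher and 7 lower in low temperature. This is near the 56.7% higher and 40.8% lower over all genes, so it is no trait of zinc finger genes. They had 5809 counts at low temperature against 31437 in control. The control counts came mostly from TRINITY_DN427_c2_g1, with 1942 at low temperature against 14856 in control, and TRINITY_DN50_c0_g3, with 1200 at low temperature against 11116 in control. TRINITY_DN427_c2_g1 was 9.93-fold lower by total counts, with a log2 ratio of -3.31 that became 0.19 with median of ratios. The genes described as TOR signalling or mannose metabolism numbered 49, and 30 of them also carry mobile element text. Among genes with a description outside these texts, the one with most control counts was TRINITY_DN582_c0_g1, described as DNA-directed RNA polymerase N-terminal, with 63 at low temperature against 5312 in control, 109.5-fold lower (85.4 to 142.7).

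Genes with no annotation carried most of the low-temperature counts. TRINITY_DN5_c0_g1 (12 contigs) had 689530 counts at low temperature, 24.8% of the library, and 589 in control, 0.0275%. TRINITY_DN0_c0_g2 had 252916 at low temperature against 261 in control, and TRINITY_DN219_c0_g1 had 205317 at low temperature against 140 in control. These 3 genes held 41.3% of the low-temperature library and 0.0462% of control, with ratios of 901.6-fold (831.6 to 979.1), 746.3-fold (661.0 to 845.9) and 1129-fold (957.1 to 1343). The other unannotated genes held 34.5% of the low-temperature library and 33.4% of control. With the 3 genes left out of the totals as well, the other unannotated genes took 58.7% in low temperature and 33.4% in control, so a larger share in low temperature remained. The tables used here give them no name, and what they encode was not analysed here.

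On the control side the unannotated genes were spread over more members. TRINITY_DN3_c0_g1 (25 contigs) had 20781 counts at low temperature against 60462 in control, 3.78-fold lower by total counts, with log2 ratios of 1.06 under TMM and 1.59 under median of ratios. TRINITY_DN0_c3_g1 had 2864 at low temperature against 34937 in control, 15.8-fold lower. TRINITY_DN1_c0_g1 had 106 at low temperature against 21255 in control, 260.4-fold lower (215.2 to 318.2). In all, 1336 (37.1%) of the 3605 unannotated genes were higher and 2176 (60.4%) lower, beside 56.7% higher and 40.8% lower over all genes. By total counts most of them thus lay on the control side while the class's counts lay on the other. Under TMM the calls were 1559 higher and 982 lower, and under upper quartile scaling 1322 higher and 2215 lower.

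Genes with more than 3 counts in both libraries have ratios that are not bounds. The 1497 such genes held 76.0% of the low-temperature counts and 93.5% of the control counts. Just inside the limit, 153 genes had 4 counts in the smaller library, and just outside it 213 had 3. By total counts, 146 (9.75%) were higher in low temperature and 1193 (79.7%) lower, so that 1339 (89.4%) differed by at least 2-fold. The median of their log2 ratios was -3.16 and the quartiles were -4.59 and -1.44. The median moves with the scaling by the shifts given above. TMM gave 466 higher and 542 lower, and median of ratios 583 higher and 399 lower. Upper quartile scaling gave 121 higher and 1243 lower, close to the calls by total counts. The balance of directions among shared genes thus depends on which scaling is used, and the order of genes along the ratio does not.

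Along that order the shared genes formed a broad lower group and a small high group. There were 537 genes with a log2 ratio under -4, and 78 genes at 4 or above, with 68 genes between 1 and 4. The group at 4 or above had no mobile element gene, 66 unannotated genes and 12 genes with other annotation. The median was -3.41 for mobile elements and -3.13 for unannotated genes. Among other annotations it was -3.28, which joins unlike subsets. The 53 genes of the annotated remainder had a median of 0.04, with 22 higher and 22 lower, beside 9.75% higher and 79.7% lower over all shared genes. The 53 with recurrent texts had a median of -4.49 and the 54 without a description -4.11. These subsets were formed after the values were seen.

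**Figure D5:**
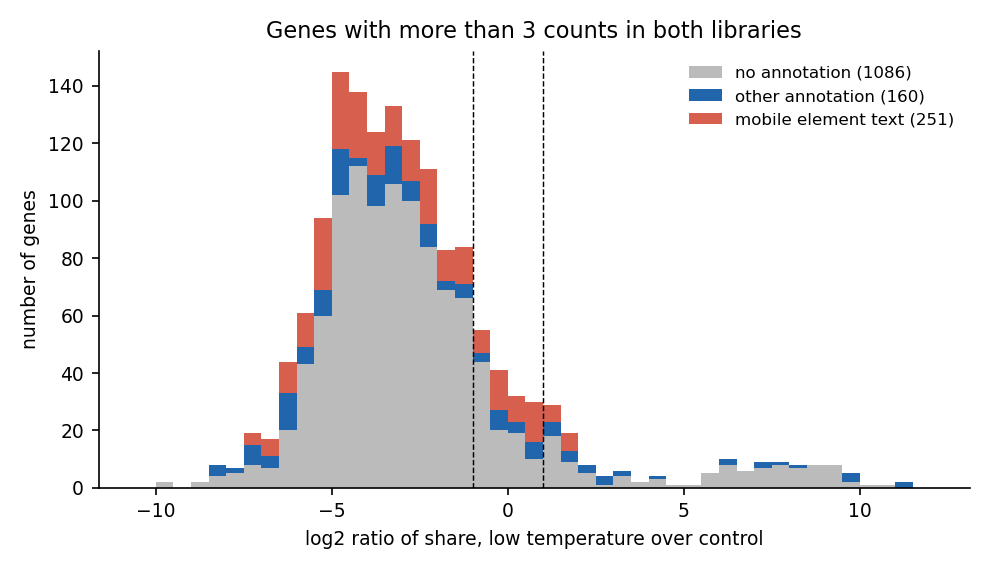
Number of genes (vertical axis) by log2 ratio of share, low temperature over control (horizontal axis), for the 1497 genes with more than 3 counts in both libraries, stacked by annotation class. Dashed lines mark a 2-fold difference. A broad group lies around the median of -3.16, and 78 genes lie at 4 or above, none of them with mobile element text.

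Among the shared genes, 29 annotated without mobile element text carried a gene symbol, of which 14 were higher, 11 lower and 4 within 2-fold. Over all shared genes, 9.75% were higher and 79.7% lower. The higher genes with a symbol were led by ACTB (TRINITY_DN31_c0_g1), CKM, GPX3, TMPRSS6 and CTSD, described above, each with 4 to 6 counts in control. Ratios of such genes rest on few control counts, and their intervals are wide. The lower ones were the 3 histone genes, ACTB (TRINITY_DN765_c0_g1), DDX23, KIF22, ATN1, PITPNM2, GTF2IRD2 and a pair of genes named SLC12A8. Apart from the histones, these were named after their values were seen. With median of ratios 5 of the 11 were within 2-fold, with log2 ratios of 0.02 for ACTB, 0.06 for PITPNM2, 0.00 for GTF2IRD2, -0.39 for SLC12A8 (TRINITY_DN1032_c0_g2, also named DOCK6) and -0.84 for ATN1. With TMM 4 of the 11 were within 2-fold. KIF22 (TRINITY_DN330_c9_g1) had 8 at low temperature against 201 in control, 32.6-fold lower (16.2 to 76.6). SLC12A8 (TRINITY_DN1032_c0_g7), a chloride cotransporter family name, had 4 at low temperature against 105 in control.

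The lowest ratios among annotated shared genes all belonged to texts that recur or to hits without a description. Both subsets were formed after the values were seen, so their place here is no separate result. TRINITY_DN159_c0_g1, BH2 domain binding, had 7 counts at low temperature against 1915 in control, 355.2-fold lower (172.1 to 884.7). TRINITY_DN108_c0_g1, with no description, had 9 at low temperature against 2179 in control, 314.4-fold lower (165.3 to 688.4). Of the 10 lowest, 5 were BH2 domain binding genes and 5 had no description, and their ratios ran from 161.6-fold to 355.2-fold lower.

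Annotated genes without mobile element text that differed by less than 2-fold numbered 20 and were low in counts, apart from TRINITY_DN114_c0_g1. They were picked out after the ratios were seen. That gene, described as nuclease activity with 16 contigs, had 1280 counts at low temperature against 1316 in control, 1.33-fold lower (1.24 to 1.44). The fatty-acid transporter SLC27A4 (TRINITY_DN44409_c0_g1) had 28 at low temperature against 21 in control, a ratio of 1.03 (0.563 to 1.90). The cytochrome P450 CYP49A1 (TRINITY_DN1508_c0_g1) had 26 at low temperature against 16 in control, a ratio of 1.25 (0.647 to 2.50), and a copper/zinc superoxide dismutase gene (TRINITY_DN21512_c0_g1) had 16 at low temperature against 8 in control, a ratio of 1.54 (0.622 to 4.16). Intervals of the last 3 include both 1 and a difference close to 2-fold, so this depth does not show whether they differ. With TMM or median of ratios all 20 were more than 2-fold higher, since these scalings add 2.98 or 3.51 to each log2 ratio.

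Contigs of 1 assembled gene did not always move together. Among shared genes, 485 had at least 2 contigs with more than 20 counts. In 370 of them all such contigs were lower and in 35 all were higher, while 15 had contigs at least 2-fold apart in both directions. The actin gene TRINITY_DN765_c0_g1 is one of these: its contig i2 had 41 counts at low temperature against 0 in control, and its contig i20 had 0 at low temperature against 123 in control. In the unannotated TRINITY_DN3_c0_g1, contig i10 had 1535 at low temperature against 324 in control, and contig i15 had 0 at low temperature against 2462 in control. For TRINITY_DN114_c0_g1, near an equal share as a gene, contig i18 had 164 at low temperature against 61 in control, and contig i34 had 0 at low temperature against 122 in control. A ratio close to 1 for a gene can thus hold contigs that differ in both directions.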

How the data were processed

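Total RNA of whole parasites was sequenced on the Ion Torrent S5 platform, per the labels' protocols. FastQC 0.11.9, fastp 0.23.2 and Salmon 1.10.2 are named in the submitters' processing notes. For the assembler, annotation tool and strand handling, the sources used here give nothing. The authors deposited estimated counts per contig, which are whole numbers in the file. Salmon gives fractional estimates, so the values were probably rounded before they were deposited. The table had 33093 entries for 31922 contigs. Repeated listings were used once, and their annotations were joined. Contigs shared between near-identical copies may split reads, so counts of mobile elements, histones, actins and tubulins are uncertain for single genes. According to the series' design text all samples were replaced at some point, and what differed is not told.

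Contigs were summed per assembled gene with Python 3.11.15, pandas 2.3.3 and scipy 1.17.1. Ratios were scaled by library totals, so that a ratio equals a ratio of shares. TMM and upper quartile (edgeR 4.0.16) and median of ratios (DESeq2 1.42.0, R 4.3.3) were alternatives, used for scaling only. There is 1 library per condition and hence no test. Shares carry exact binomial (Clopper-Pearson) 95% intervals and ratios exact conditional binomial 95% intervals. The counting of calls and the intervals were tested on simulated data with 200 changed genes.

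Classes were assigned by text in a fixed order, mobile element text first, then 27 function lists, then other annotation. The named genes are chiefly the 10 annotated genes without mobile element text with most counts in each library, the 10 largest mobile element genes, the 10 highest and lowest ratios and the 10 largest counts among annotated shared genes, the top 3 of each list, and the top 5 unannotated genes of each library. Not all of them are printed, and genes outside this rule are marked in the text. The members and lists were chosen with earlier results of these data known. Bacterial genes were not analysed here, and no sequences were used.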

Additional observations from a re-analysis of the deposited data

How the results depend on the processing

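No paired analysis was possible because each condition is 1 library and no test was run. The order of the classes between the libraries held under each alternative tried for shares, with mobile elements smaller and other annotations larger in low temperature. With each contig classed by its own annotation, the shares in low temperature and control were 4.61% and 48.2% for mobile elements, 15.7% and 11.1% for other annotations, and 76.9% and 38.2% for unannotated genes. With genes over 100 counts they were 4.90% and 55.9%, 13.9% and 7.77%, and 74.1% and 30.5%. With 1 contig per gene they were 4.87% and 54.9%, 14.7% and 7.12%, and 76.5% and 34.0%. With each listing counted they were 8.59% and 65.2%, 19.98% and 7.70%, and 68.9% and 25.2%. Without a filter, other annotations took 17.2% and 7.97% and unannotated genes 77.9% and 35.9%.

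The counts of genes moved mainly with scaling and filters. Genes higher in low temperature numbered 5803 with more than 10 counts, 1050 with more than 100 and 7324 with no filter. Genes lower numbered 4022, 903 and 6778 under the same filters, 1228 with TMM, 820 with median of ratios and 4371 as contigs. Among shared genes, 466 were higher and 542 lower with TMM, 583 and 399 with median of ratios, 92 and 734 with more than 100 counts, 70 and 624 with more than 10 in both, and 33 and 290 with more than 30 in both, and 1831 contigs were lower. Leaving out the 3 largest unannotated genes of low temperature, an alternative chosen after seeing the data, gave 186 shared genes higher and 1068 lower. The smaller counts under stricter filters follow from fewer genes.

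Of 136 genes examined, 4 reversed their log2 ratio under TMM and 5 under median of ratios: TRINITY_DN50_c0_g6 (0.69 and 1.22), TRINITY_DN4_c0_g1 (0.37 and 0.91), TRINITY_DN50_c0_g1 (0.84 and 1.37), TRINITY_DN3_c0_g1 (1.06 and 1.59), and TRINITY_DN427_c2_g1 under median of ratios alone (0.19). A further 2 lower genes came within 2-fold under TMM, TRINITY_DN427_c2_g1 (-0.34) and TRINITY_DN50_c0_g3 (-0.61), and 5 did under median of ratios, TRINITY_DN50_c0_g3 (-0.08), TRINITY_DN0_c3_g1 (-0.48), TRINITY_DN1960_c0_g1 (-0.65), TRINITY_DN105_c0_g1 (-0.79) and TRINITY_DN24_c0_g1 (-0.86). Of the 20 genes within 2-fold by total counts, all were higher under both scalings. Those scalings add a constant to every log2 ratio, which is what turned them. Depth limits the ratios of genes with few control counts, and the absence of replicates limits all of them.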
